A study of Mus musculus with 16 samples.

Results

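Bdnf, Vgf, Scg2, the neuronal pentraxins Nptx1 and Nptx2, and Inhba encode secreted products of neurons whose transcription is known to respond to neuronal activity. Ntrk2 encodes the receptor of BDNF, and Nptxr encodes the membrane-bound neuronal pentraxin. These 8 genes form a set by their known roles, and the rule for them uses no measured value. The set was, however, chosen with earlier results of these data known. All 8 were found among the 54532 entries of the deposited count table, and all 8 passed the filter on low counts that left 17736 genes for testing.

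Bulk RNA-seq covered 16 libraries of brain tissue from females aged 9 months. The mice with Ch25h were Ch25h+/+ Tau- or Ch25h+/+ Tau+, the mice without it were Ch25h-/- Tau- or Ch25h-/- Tau+, and each of these 4 groups had 4 libraries. Ch25h encodes cholesterol 25-hydroxylase, the enzyme that makes the oxysterol 25-hydroxycholesterol, and -/- marks loss of both copies. Tau+ is taken to mean that a tau transgene was present, whose promoter and mutation the labels do not give. Per the sample labels the tissue was frontal cortex, while the series' design text names the hippocampus. Each of 7 cortex markers and 8 hippocampus markers was detected in every library. The labels do not say how the Ch25h deletion was made, or that each library came from a different mouse, so p-values measure only the spread between these libraries.

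The libraries held 15530352 to 25602500 counts. Ch25h had 0 counts in all 8 Ch25h-/- libraries and 5 to 30 counts in the Ch25h+/+ libraries. Prnp, the prion protein gene whose promoter is used in several tau transgenes, was at 1414 to 1935 CPM (counts scaled to a common library size) in Tau+ libraries and 708 to 839 CPM in Tau- libraries. Within every group the summed level of 6 choroid plexus markers varied widely, from 15.8 to 2737 CPM over the 16 libraries. Its part in the values below was not tested. Another feature of the libraries bears on every comparison of Ch25h genotypes. The ribosomal RNA entry CT010467.1 took 2289 to 5684 CPM in 7 of the 8 Ch25h-/- libraries, called rRNA-rich here, and 111 to 475 CPM in the other 9 libraries, called rRNA-poor. All 8 Ch25h+/+ libraries were rRNA-poor, and Ch25h-/- Tau+ replicate 1 was the only rRNA-poor Ch25h-/- library. The rRNA-rich libraries also gave lower values for GC-rich genes: the Spearman correlation across genes of expression with GC content was -0.39 to -0.25 in them and 0.082 to 0.35 in the rRNA-poor ones. Genotype and library class can therefore hardly be told apart, and for each of the 8 genes the value in that 1 library is given below.

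BDNF is made as a precursor, stored in dense-core vesicles and cleaved to a form that binds TrkB, the product of Ntrk2, at synapses. VGF and secretogranin II, the product of Scg2, belong to the granin proteins of the same vesicles and are cut into peptides by prohormone convertases. Neuronal pentraxins 1 and 2 are released at excitatory synapses, where they assemble with the pentraxin receptor and gather AMPA-type glutamate receptors. Inhba encodes the subunit of activin A, a ligand of the TGF-beta family, and its transcription is known to follow synaptic activity in forebrain neurons.

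The table names genes by symbol, and all 8 are protein-coding genes at distinct loci (GENCODE M21, build GRCm38). Bdnf lies at chr2:109674700-109727007 on the plus strand and Ntrk2 at chr13:58806569-59133970 on the plus strand. Vgf lies at chr5:137026392-137033351 on the plus strand and Scg2 at chr1:79434669-79440120 on the minus strand. Nptx1 lies at chr11:119538719-119547753 on the minus strand, Nptx2 at chr5:144545902-144557478 on the plus strand and Nptxr at chr15:79786351-79804766 on the minus strand. Inhba lies at chr13:16011851-16031621 on the plus strand.

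Base composition differs widely among the 8 genes, and it is shown first because the library class moves with it. The middle 150 coding bases of Vgf, Scg2 and Nptxr, each within 1 coding exon, are printed 5′ to 3′ on the coding strand with G and C in capitals. Vgf lies on the plus strand and the stretch at chr5:137031836-137031985. Scg2 lies on the minus strand and the stretch at chr1:79436005-79436154. Nptxr lies on the minus strand and the stretch at chr15:79794271-79794420.
Vgf: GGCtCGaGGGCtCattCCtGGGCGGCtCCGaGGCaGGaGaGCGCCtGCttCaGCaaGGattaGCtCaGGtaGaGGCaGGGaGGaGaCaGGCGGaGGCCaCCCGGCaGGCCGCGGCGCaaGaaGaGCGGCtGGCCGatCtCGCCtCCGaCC
Scg2: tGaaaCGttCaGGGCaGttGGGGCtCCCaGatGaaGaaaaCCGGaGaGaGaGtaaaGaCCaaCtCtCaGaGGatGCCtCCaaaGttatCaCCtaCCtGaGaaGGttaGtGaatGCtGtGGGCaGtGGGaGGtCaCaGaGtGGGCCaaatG
Nptxr: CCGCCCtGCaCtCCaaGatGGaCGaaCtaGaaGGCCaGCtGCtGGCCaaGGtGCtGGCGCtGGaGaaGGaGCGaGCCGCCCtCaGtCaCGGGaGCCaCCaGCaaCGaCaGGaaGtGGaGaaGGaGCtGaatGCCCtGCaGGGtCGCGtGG
G and C made up 104 of the 150 bases in Vgf, 97 in Nptxr and 77 in Scg2. Over the whole coding sequence the share was 65.6% in Vgf and 49.5% in Scg2, which have the same coding length of 1851 bases, and 68.3% in Nptxr. Over the longest transcript, UTRs included, the GC content of Vgf was 64.1%, above 99.3% of the tested genes. It was 59.6% in Nptxr, 58.3% in Nptx2, 54.9% in Nptx1, 48.6% in Ntrk2, 46.8% in Scg2, 41.4% in Inhba and 40.9% in Bdnf, against a median of 49.6% over tested genes.

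Promoter sequences from RefSeq (GRCm38.p6), reaching from 250 bases before to 50 bases after an annotated start, were matched for 4 of the 8 genes: 7 promoters of Bdnf and 1 each of Scg2, Inhba and Ntrk2. The cAMP response element (TGACGTCA), its short core (TGACG), an AP-1 pattern (TGANTCA) and the E-box (CACGTG) were searched on both strands. The AP-1 pattern accepts any base at N, so a match to it need not be a site of Fos and Jun. The cAMP response element and the AP-1 site are bound by the CREB and the Fos and Jun factors, which act downstream of neuronal activity. The full cAMP response element contains the short core on either strand. The full element was found in the Scg2 promoter alone among the 10, starting 68 bases before the start site, and 1.79% of 32851 promoters hold it. A short core was also found in 1 Bdnf promoter, starting 35 bases before the start site, and 20.8% of all promoters hold one. Another Bdnf promoter matched the AP-1 pattern 152 bases before its start, with the letters TGAATCA, and 7.81% of all promoters match the pattern. No E-box was found in the 10 (7.15% of all promoters). The 2 promoters with a match nearest to the start are printed with the match in capitals. The Scg2 promoter lies at chr1:79439977-79440276 on the minus strand, and that of Bdnf at chr2:109692186-109692485 on the plus strand.
Scg2 promoter: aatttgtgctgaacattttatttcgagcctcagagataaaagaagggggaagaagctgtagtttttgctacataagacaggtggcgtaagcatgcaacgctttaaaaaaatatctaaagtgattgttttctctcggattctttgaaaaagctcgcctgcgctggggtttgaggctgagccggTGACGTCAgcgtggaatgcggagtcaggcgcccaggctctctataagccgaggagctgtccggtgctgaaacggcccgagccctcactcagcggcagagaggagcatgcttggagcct
Bdnf promoter: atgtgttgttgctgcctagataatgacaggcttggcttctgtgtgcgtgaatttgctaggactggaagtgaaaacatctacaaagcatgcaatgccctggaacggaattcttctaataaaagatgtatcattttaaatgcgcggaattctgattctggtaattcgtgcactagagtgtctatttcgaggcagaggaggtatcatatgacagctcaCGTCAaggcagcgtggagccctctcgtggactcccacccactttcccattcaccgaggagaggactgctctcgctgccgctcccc
A match says only that these letters stand in the window, and neither gene passed a test below.

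Compared per length, as CPM per kilobase of exon (RPKM), Nptxr and Vgf were the most abundant of the 8, with means over 16 libraries of 196 and 164 RPKM. Nptx1 followed at 87.2 RPKM, Scg2 at 63.9, Ntrk2 at 36.1 and Nptx2 at 29.2. Bdnf, at 4.56 RPKM, and Inhba, at 1.65 RPKM, were far lower. Single libraries of Nptxr (159 to 225 RPKM) and Vgf (114 to 215 RPKM) overlapped, as did those of Nptx1 (70.9 to 98.3) with Scg2 (53.7 to 72.7) and of Ntrk2 (25.1 to 40.4) with Nptx2 (20.6 to 41.8). The other neighbours in this order did not overlap. Inhba had the fewest counts, 87 to 372 per library, and its level varied most, from 5.36 to 16.1 CPM, while Scg2 varied least, from 135 to 183 CPM.

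**Figure D1:**
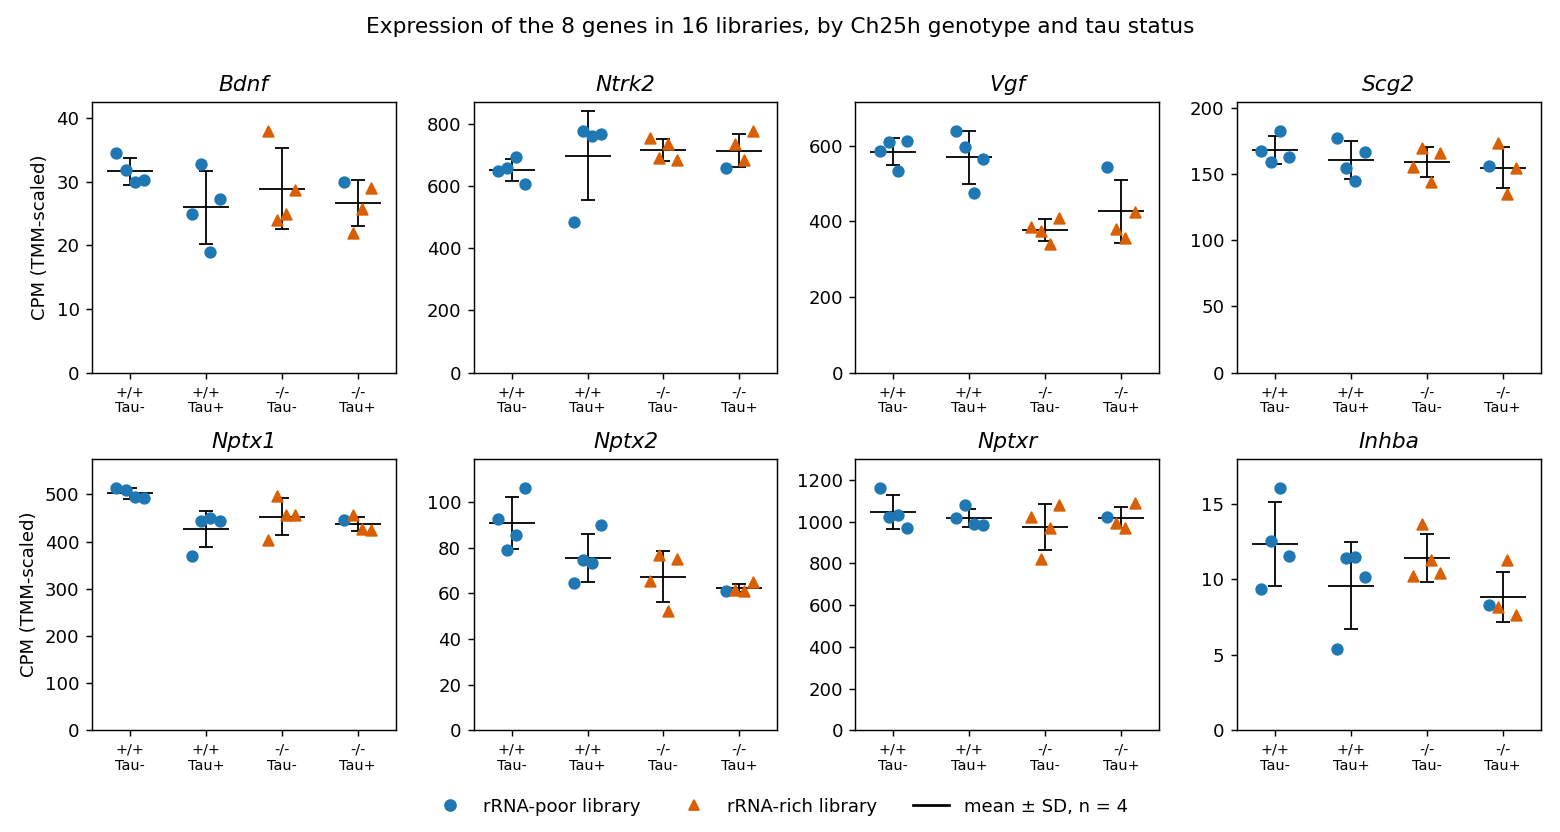
Expression of the 8 genes in CPM on TMM-scaled library sizes, with a linear axis from 0 in each panel, by Ch25h genotype and tau status. Points are single libraries (circles rRNA-poor, triangles rRNA-rich) and lines give the mean ± SD of 4 libraries. For Vgf, the 7 triangles lie between 339 and 424 CPM and the 9 circles between 474 and 639 CPM.

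The tau comparison asks how the tau transgene moves these genes with and without Ch25h. No gene of the 8 passed the threshold, an adjusted p of 0.05 over all tested genes, in either Ch25h genotype. The Nptx1 and Nptx2 means were lower in Tau+ than in Tau- among Ch25h+/+ libraries, and the unadjusted p was under 0.05 for these 2 genes alone, against 9.38% of all tested genes. Which genes came under it depended on Ch25h+/+ Tau+ replicate 1: without that library they were Ntrk2, with a higher mean in Tau+, and Nptx1. In Ch25h+/+, 1.56% of all tested genes passed the threshold, against 0 of the 8. In Ch25h-/-, 0.0395% passed, against 0 of the 8, and none of the 8 had an unadjusted p under 0.05.

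Bdnf was at 34.6, 31.9, 29.9 and 30.3 CPM in Ch25h+/+ Tau- and at 24.9, 32.8, 19.0 and 27.4 CPM in Ch25h+/+ Tau+. The groups overlapped through 1 Tau+ library at 32.8 CPM, and the log2 difference was -0.28 (SE 0.16, adjusted p = 0.644). In Ch25h-/- it was at 38.1, 24.0, 25.0 and 28.7 CPM without tau and 29.9, 22.0, 25.7 and 29.0 CPM with tau. These ranges overlapped in part, with a log2 difference of -0.12 (SE 0.16). Leaving out Ch25h+/+ Tau+ replicate 3 moved the first difference to -0.16, and leaving out Ch25h-/- Tau- replicate 1 turned the sign of the second, to 0.04. The 95% interval in Ch25h+/+ ran from -0.61 to 0.04, so that a fall to 0.66-fold is within it.

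For Ntrk2, the TrkB receptor gene, Ch25h+/+ Tau- libraries were at 650, 660, 693 and 606 CPM and Ch25h+/+ Tau+ libraries at 484, 777, 763 and 770 CPM. In the latter group 3 libraries were above every Tau- library and replicate 1 was below them all, which put the log2 difference at 0.10 (SE 0.12, adjusted p = 0.929). Without Ch25h+/+ Tau+ replicate 1 it was 0.25 (SE 0.07, adjusted p = 0.101). In Ch25h-/-, the 4 Tau- libraries (684 to 756 CPM) and the 4 Tau+ libraries (658 to 779 CPM) overlapped, with a log2 difference of -0.0050 (SE 0.12).

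Among the granins, Vgf showed no difference with tau beyond the spread. Its log2 difference was -0.04 (SE 0.12) in Ch25h+/+ and 0.17 (SE 0.12) in Ch25h-/-. The latter rests on the rRNA-poor Ch25h-/- Tau+ replicate 1: it was 0.03 without that library. Scg2 was at 159 to 183 CPM in Ch25h+/+ Tau-, 145 to 177 CPM in Ch25h+/+ Tau+, 144 to 170 CPM in Ch25h-/- Tau- and 135 to 174 CPM in Ch25h-/- Tau+. All 4 ranges overlapped. The 2 tau differences of Scg2 were -0.07 and -0.04 on the log2 scale (SE 0.08 for both).

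Nptx1 was at 513, 510, 494 and 491 CPM in Ch25h+/+ Tau- and at 370, 443, 450 and 443 CPM in Ch25h+/+ Tau+. The 2 groups did not overlap, which held with the Tau+ group lower for 1.97% of all tested genes and for Nptx1 alone among the 8. The log2 difference was -0.23 (SE 0.08, 95% interval -0.39 to -0.08), with an unadjusted p of 0.00617 and an adjusted p of 0.194. In Ch25h-/- the libraries were at 402, 498, 456 and 456 CPM without tau and 445, 455, 427 and 423 CPM with tau, and overlapped. There the log2 difference was -0.05 (SE 0.08). None of the 8 genes was without overlap and lower with tau in Ch25h-/-, against 0.992% of all tested genes.

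Nptx2 was at 92.5, 79.1, 85.7 and 106 CPM in Ch25h+/+ Tau- and at 64.5, 74.4, 73.5 and 90.0 CPM in Ch25h+/+ Tau+. A Tau+ library at 90.0 CPM lay within the Tau- range, and the log2 difference was -0.26 (SE 0.12, unadjusted p = 0.0354, adjusted p = 0.465). Other settings gave -0.30 to -0.15 for it. In Ch25h-/- the log2 difference of Nptx2 was -0.11 (SE 0.12), and -0.22 to -0.05 on leaving out each library in turn. Nptxr differed little: -0.04 in Ch25h+/+ and 0.07 in Ch25h-/- (SE 0.08 for both), with overlapping libraries in both.

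Inhba was at 9.38, 12.5, 16.1 and 11.5 CPM in Ch25h+/+ Tau- and at 5.36, 11.4, 11.5 and 10.1 CPM in Ch25h+/+ Tau+. In Ch25h-/- it was at 10.2, 13.7, 11.3 and 10.4 CPM without tau and 8.29, 8.19, 11.3 and 7.62 CPM with tau. Both pairs of groups overlapped, and the log2 differences were -0.36 in Ch25h+/+ and -0.37 in Ch25h-/- (SE 0.21 for both). Without Ch25h+/+ Tau+ replicate 1 the first was -0.16, and without Ch25h+/+ Tau- replicate 3 it was -0.20. In all, 4 of the 8 Tau+ libraries were below every Tau- library.

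Averaged over both Ch25h genotypes, 3 of the 8 genes had an unadjusted p under 0.05 for tau, all with lower means in Tau+, against 9.85% of all tested genes. Without Ch25h+/+ Tau+ replicate 1 Nptx2 was no longer among them and Ntrk2 was, with a higher mean in Tau+ (0.12, SE 0.05). Inhba differed by -0.36 (SE 0.15, adjusted p = 0.386), Nptx1 by -0.14 (SE 0.05, adjusted p = 0.327) and Nptx2 by -0.19 (SE 0.08, adjusted p = 0.441). None passed the threshold, against 0.857% of all tested genes. The median log2 difference over the 8 genes was -0.15 in Ch25h+/+, where 7 of 8 were below 0, and -0.04 in Ch25h-/-, where 6 were. The median over all tested genes was -0.0080 in the first and 0.0080 in the second.

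Immediate early genes were read beside these as further genes that follow neuronal activity. Of 16 immediate early genes, which neurons switch on within minutes of firing, all 16 had lower means in Ch25h+/+ Tau+ than in Ch25h+/+ Tau-, with a median log2 difference of -0.46. Of them 1 passed: Homer1, a postsynaptic scaffold gene with an activity-induced short form, fell from 278 ± 22.1 to 187 ± 41.3 CPM (SD, n = 4), a log2 difference of -0.57 (SE 0.13, adjusted p = 0.0231). Its adjusted p rose to 0.0561 without Ch25h+/+ Tau+ replicate 1, the library that also stood apart for Ntrk2 and Nptx1. It was also above 0.05 without Ch25h+/+ Tau- replicate 2 or 4 or without Ch25h+/+ Tau+ replicate 3 or 4, up to 0.0903, and was 0.0973 with only the libraries compared. In Ch25h-/- the median was -0.35 and 0 of 16 passed; Homer1 differed there by -0.04 (SE 0.13). Homer1 was not shown to differ between the genotypes, since its interaction had an adjusted p of 0.651.

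Summed marker levels of cell types were read in each group. The 5 microglial markers were each detected in every library. Their sum was 318 to 413 CPM in Ch25h+/+ Tau+ and 252 to 268 CPM in Ch25h+/+ Tau-. In Ch25h-/- the ranges overlapped, at 249 to 304 CPM with tau and 251 to 281 CPM without it. For 5 astrocyte markers the Ch25h+/+ ranges were 1573 to 1957 CPM with tau and 1460 to 1570 CPM without it. Those in Ch25h-/- overlapped, at 1449 to 1636 CPM with tau and 1368 to 1687 CPM without it. On average over Ch25h genotypes, 2 microglial and 0 astrocyte markers passed as higher with tau. Of all tested genes 0.857% passed in either direction. For 6 striatal markers the sums were 159 to 178 CPM in Ch25h+/+ Tau+ and 175 to 275 CPM in Ch25h+/+ Tau-. The sum of 7 excitatory neuron markers was 4346 to 5797 CPM in Ch25h+/+ Tau+ and 5432 to 5668 CPM in Ch25h+/+ Tau-. Their part in the values above was not tested. In bulk tissue, fewer cells of a type and less RNA per cell cannot be told apart.

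**Figure D2:**
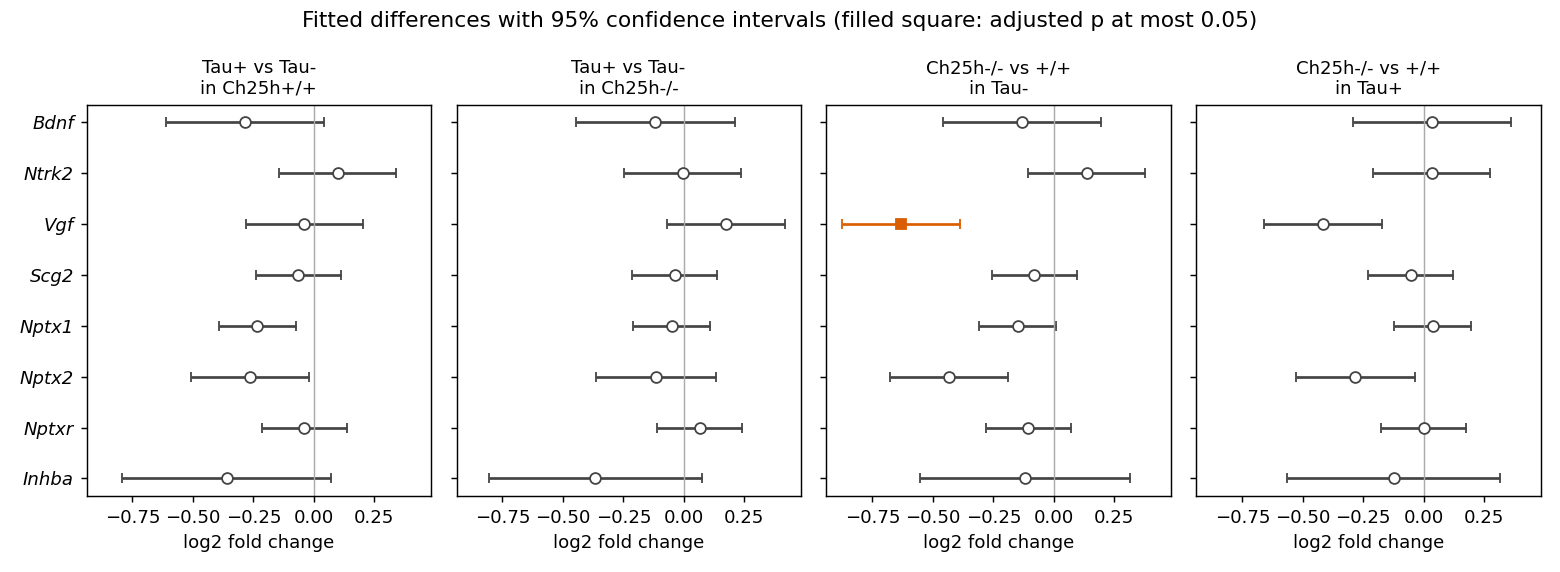
Fitted log2 fold changes of the 8 genes (x axis) in 4 comparisons, with 95% confidence intervals from the edgeR fit. A filled square marks an adjusted p of at most 0.05, and Vgf for Ch25h loss in Tau-, at -0.63, is the single one.

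Loss of Ch25h was compared in each tau status and on average. Averaged over Tau- and Tau+, 2 of the 8 genes were lower in Ch25h-/-: Vgf at 0.70-fold and Nptx2 at 0.78-fold. This count is near the background, since 20.3% of all tested genes passed for the average loss of Ch25h and 10.8% passed as lower. In Tau- libraries alone 1 of the 8 passed, Vgf, against 1.03% of all tested genes. In Tau+ libraries 0 of the 8 passed, against 3.55%.

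Vgf was at 585, 608, 532 and 611 CPM in Ch25h+/+ Tau- and at 386, 375, 339 and 409 CPM in Ch25h-/- Tau-. These 2 groups did not overlap, as held with Ch25h-/- lower for 8.58% of all tested genes and for 2 of the 8, Vgf and Nptx2. The log2 difference was -0.63 (SE 0.12, 95% interval -0.88 to -0.39, adjusted p = 0.0265). With GC-corrected offsets it was -0.34 (adjusted p = 0.170), and with the library class as a covariate, described below, -0.14 (SE 0.18), so that the call was lost under both. It was also lost, with an adjusted p of 0.0579 to 0.126, when Ch25h+/+ Tau- replicate 1, 2 or 4 or Ch25h-/- Tau- replicate 1, 2 or 3 was left out. The log2 difference in those fits was -0.64 to -0.58.

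In Tau+ libraries Vgf was at 639, 597, 474 and 564 CPM with Ch25h and at 544, 380, 355 and 424 CPM without it. The groups overlapped through Ch25h-/- Tau+ replicate 1, the rRNA-poor library, which lay at 544 CPM. The other 3 Ch25h-/- Tau+ libraries were below every Ch25h+/+ library. The log2 difference was -0.42 (SE 0.12, adjusted p = 0.0533), and -0.57 (SE 0.10, adjusted p = 0.00504) without replicate 1, when genotype and library class cannot be told apart. With the class covariate it was -0.06 (SE 0.15) and with GC-corrected offsets -0.13 (SE 0.09), neither of which passed. None of the 8 genes was without overlap and lower here, against 5.74% of all tested genes.

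Over both tau states the log2 difference of Vgf was -0.52 (SE 0.08, 95% interval -0.70 to -0.35, adjusted p = 0.00150). The 7 rRNA-rich Ch25h-/- libraries were at 381 ± 29.2 CPM (SD, n = 7) and the rRNA-poor one at 544 CPM, within the Ch25h+/+ range of 474 to 639 CPM. With the library class as a covariate, the difference was -0.10 (SE 0.15, adjusted p = 0.9995). This covariate is estimated within the Ch25h-/- Tau+ group, so it rests on 1 library, and under it 0 genes of all tested passed, with 511 at an unadjusted p under 0.05. With each library's trend against GC content removed, Vgf differed by -0.23 (SE 0.06, adjusted p = 0.0418).

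Nptx2 was at 65.2, 76.7, 52.3 and 74.8 CPM in Ch25h-/- Tau-, all below the 79.1 to 106 CPM of Ch25h+/+ Tau-. The log2 difference was -0.43 (SE 0.12, 95% interval -0.68 to -0.19), with an adjusted p of 0.0682, and -0.25 with GC-corrected offsets. In Ch25h-/- Tau+ it was at 61.1, 61.5, 61.2 and 64.8 CPM, and Ch25h+/+ Tau+ replicate 1, at 64.5 CPM, lay within that range. The difference there was -0.28 (SE 0.12, adjusted p = 0.153), and -0.09 with GC-corrected offsets. Over both tau states it was -0.36 (SE 0.08, 95% interval -0.53 to -0.18, adjusted p = 0.00835).

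In contrast to Vgf, the rRNA-poor Ch25h-/- library held Nptx2 at 61.1 CPM, at the level of the other 3 libraries of its group and below the Ch25h+/+ range of 64.5 to 106 CPM. With the library class as a covariate the difference of Nptx2 was -0.39, as large as without it, but its SE grew to 0.20 (adjusted p = 0.9995). The single rRNA-poor Ch25h-/- Tau+ library differed from the 4 Ch25h+/+ Tau+ libraries by -0.30 (SE 0.19) for Nptx2 and by -0.06 (SE 0.15) for Vgf, and neither passed. The spread there comes from the Ch25h+/+ groups alone, and the lone library is assumed to vary like them. That Nptx2 and Vgf differ in this respect was not tested. With the GC trend removed Nptx2 differed by -0.17 (SE 0.08, adjusted p = 0.234), so that its call was lost there.

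**Figure D3:**
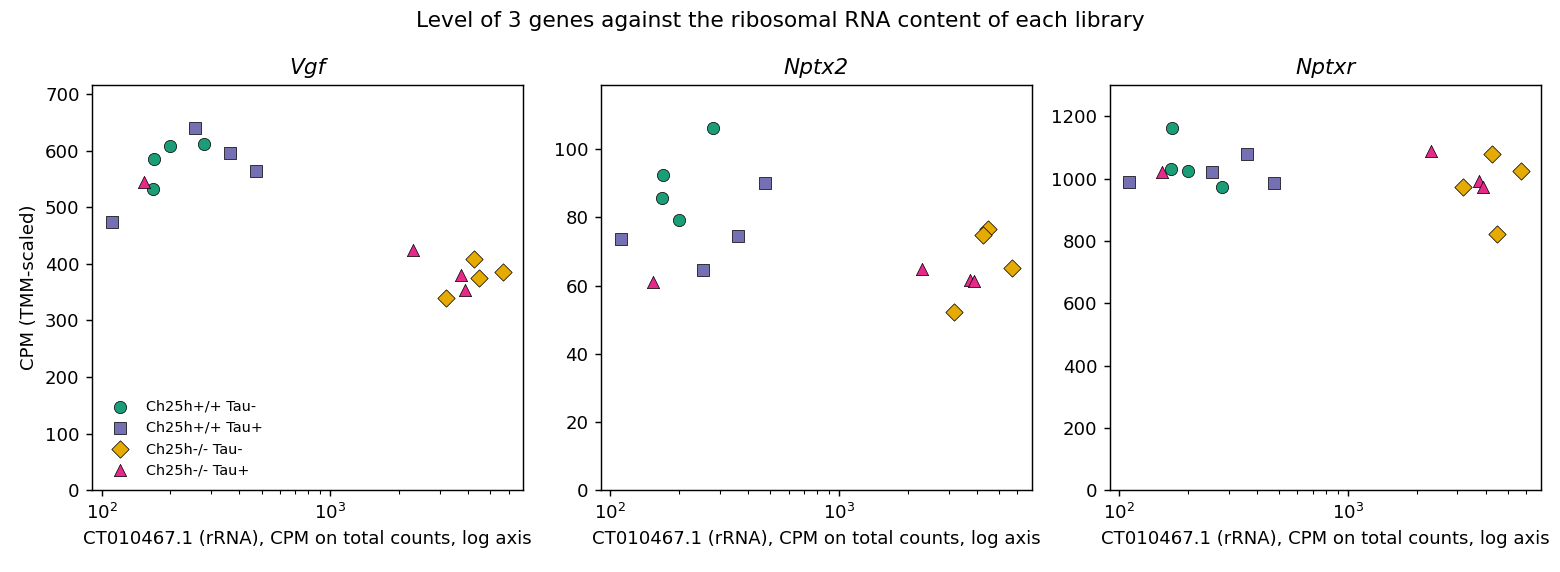
Level of Vgf, Nptx2 and Nptxr in CPM (linear axis from 0) against the level of the ribosomal RNA entry CT010467.1 in CPM on total counts (log axis), 1 point per library, with a colour and shape per group. For Vgf the Ch25h-/- Tau+ library on the left lies at 544 CPM among the Ch25h+/+ libraries, for Nptx2 at 61.1 CPM below all of them, and for Nptxr at 1022 CPM, with libraries of both classes at like levels.

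Nptxr was second to Vgf in GC content over the longest transcript and above it over the coding sequence. It was not lower with Ch25h loss beyond the spread, and the part of GC content in this was not tested. Its Ch25h-/- libraries were at 822 to 1079 CPM in Tau- and 972 to 1090 CPM in Tau+, against 971 to 1161 CPM and 986 to 1080 CPM in Ch25h+/+. All of these ranges overlapped. The mean log2 difference with Ch25h loss was -0.05 (SE 0.06, 95% interval -0.18 to 0.07). With GC-corrected offsets its sign turned, to 0.16 (SE 0.07, adjusted p = 0.164).

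The other 5 genes did not pass for Ch25h loss in either tau status or on average. Their mean log2 differences were -0.05 for Bdnf (95% interval -0.28 to 0.18), 0.09 for Ntrk2 (-0.09 to 0.26), -0.07 for Scg2 (-0.19 to 0.06), -0.06 for Nptx1 (-0.17 to 0.06) and -0.12 for Inhba (-0.43 to 0.19). Without Ch25h+/+ Tau+ replicate 1, Ntrk2 was at 0.015 and Inhba at -0.22. Leaving out each library in turn moved Bdnf over -0.13 to 0.0080. Some signs of the 5 genes turned under other settings. With the class covariate Bdnf was at 0.15 and Ntrk2 at -0.05, and with GC-corrected offsets Nptx1 was at 0.06. With those offsets Bdnf was at -0.23, Scg2 at -0.14 and Inhba at -0.29, and none of the 5 passed under either setting. Without such corrections, each of these intervals leaves out a fall as large as the -0.52 of Vgf, and that of Inhba reaches lowest, to 0.74-fold. In Ch25h-/- Tau+ replicate 1, Bdnf was at 29.9 CPM, Scg2 at 156, Nptx1 at 445 and Inhba at 8.29 CPM, each within the range of the 7 rRNA-rich libraries. Ntrk2 was at 658 CPM there, below their 684 to 779 CPM. The median over the 8 genes was -0.06 against 0.0044 over all tested genes. The summed excitatory neuron markers were at 4970 to 5694 CPM in Ch25h-/- libraries and 4346 to 5797 CPM in Ch25h+/+ libraries, so that the ranges overlapped. On average with Ch25h loss, 1 of 7 excitatory markers passed as higher and 1 as lower (median log2 difference 0.14), 1 of 7 inhibitory markers as lower, 2 of 7 cortex markers as higher and 1 of 8 hippocampus markers as lower. Of other marker lists, 2 of 6 oligodendrocyte, 2 of 5 astrocyte, 2 of 5 microglial and 1 of 5 endothelial markers passed as lower. In the microglial list 1 marker passed as higher. The median log2 difference was -0.25 over the oligodendrocyte, -0.10 over the astrocyte, -0.24 over the microglial and -0.03 over the endothelial markers. It was -0.33 over the 6 striatal markers, of which 1 passed as lower. Their part in the values of the 8 genes was not tested.

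**Figure D4:**
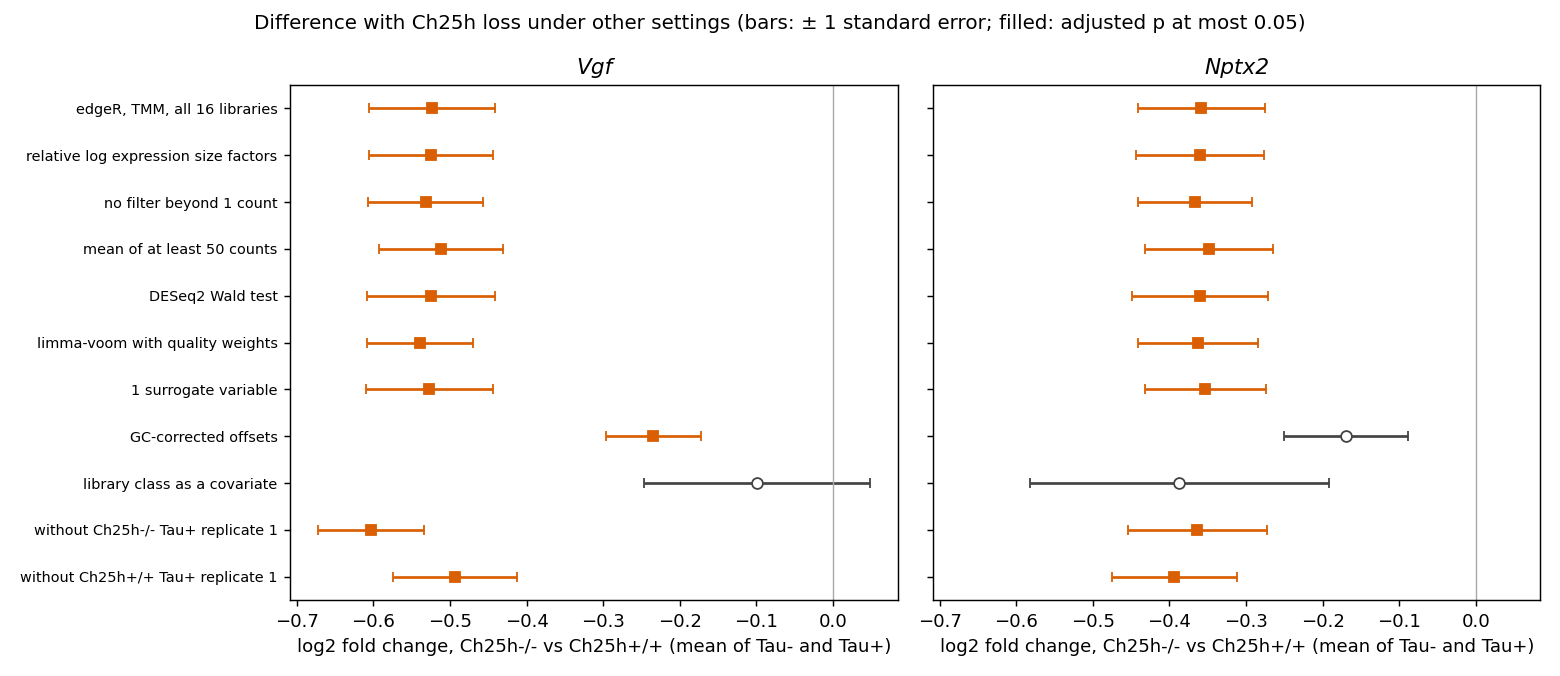
Log2 fold change of Vgf and Nptx2 with Ch25h loss, averaged over Tau- and Tau+ (x axis), under the main analysis and 10 other settings (rows). Bars are ± 1 standard error, and filled squares mark an adjusted p of at most 0.05. The covariate for library class moves Vgf from -0.52 to -0.10 and Nptx2 from -0.36 to -0.39 with a wider error, and neither passes under it. The GC-corrected offsets move Vgf to -0.23 and Nptx2 to -0.17.

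The interaction asks whether the tau difference depends on Ch25h. None of the 8 genes passed, against 0.0338% of all tested genes, and none had an unadjusted p under 0.05. The log2 interaction was 0.19 for Nptx1 (SE 0.11, 95% interval -0.04 to 0.41) and 0.21 for Vgf (SE 0.16, 95% interval -0.13 to 0.56). The value of Vgf was 0.06 without Ch25h-/- Tau+ replicate 1. Without Ch25h+/+ Tau+ replicate 1, that of Nptx1 was 0.11 and that of Ntrk2 moved from -0.10 to -0.26 (SE 0.10), with an unadjusted p under 0.05 and an adjusted p of 0.634. So the gap of Nptx1 between Tau- and Tau+ was not shown to differ between the Ch25h genotypes. The interval for Inhba ran from -0.62 to 0.61.

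Genes around the 8 in the same pathways were read from 6 lists, and every call below for Ch25h loss was lost with the library class as a covariate. With the GC trend removed, Pcsk1n, C1ql3 and Bambi still passed on average over tau states among the genes named by rule, while every call below within Tau+ or within Tau- was lost. The calls of Sorcs3 and Npy in Tau+ were also lost with 1 surrogate variable and with only the libraries compared. Those of Crh and Gria4 on average and of Gria3 in Tau+ were lost with no filter beyond 1 count. That of C1ql2 in Tau- was lost with a mean of at least 50 counts. Over all tested genes 9.55% passed as higher and 10.8% as lower on average over tau states, which is the background for each count of an average; within Tau+ and within Tau- it is the 3.55% and 1.03% given above. In the granin and prohormone list, 1 of 11 was higher and 3 were lower on average. Chga, the chromogranin A gene, fell by 0.39 on the log2 scale on average (SE 0.07, adjusted p = 0.00297). Pcsk1n, which encodes the proSAAS inhibitor of the convertase, fell by 0.48 (adjusted p = 0.00252) and Chgb, the chromogranin B gene, by 0.23 (adjusted p = 0.0259), a call lost without Ch25h-/- Tau- replicate 3 or Ch25h-/- Tau+ replicate 3 (up to 0.0535). Pcsk1, the convertase that cuts granins, rose by 0.34 (SE 0.09, adjusted p = 0.0131), an average of 0.63 in Tau+ and 0.05 (SE 0.12) in Tau-. With the class covariate the mean differences were -0.24 for Chga, -0.31 for Pcsk1n and 0.03 for Pcsk1.

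Pcsk1 was at 46.8 ± 8.70 CPM in Ch25h+/+ Tau+ and 72.6 ± 8.38 CPM in Ch25h-/- Tau+ (SD, n = 4), a log2 difference of 0.63 (SE 0.12, adjusted p = 0.0125). Chga passed in Tau+ as well, from 189 ± 24.5 to 139 ± 9.33 CPM (SD, n = 4) or -0.45 on the log2 scale (adjusted p = 0.0252), as did Pcsk1n at -0.47 (adjusted p = 0.0383). Both calls were lost without Ch25h+/+ Tau+ replicate 1 or 4 or Ch25h-/- Tau+ replicate 2, 3 or 4, with an adjusted p of up to 0.0853 for Chga and 0.114 for Pcsk1n. The call for Pcsk1 was lost without Ch25h+/+ Tau+ replicate 4 (adjusted p = 0.0616). With only the libraries compared, the adjusted p was 0.0561 for Pcsk1, 0.0723 for Chga and 0.128 for Pcsk1n. No gene of this list passed in Tau- or in any comparison of tau.

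Of 8 AMPA receptor subunits and pentraxin partners, 4 were higher and 1 lower on average with Ch25h loss. The subunit genes Gria2, at 0.33 (SE 0.07, adjusted p = 0.00434), Gria3, at 0.27 (SE 0.05, adjusted p = 0.00331), and Gria4, at 0.16 (adjusted p = 0.0375), rose, as did C1ql3 at 0.28 (adjusted p = 0.0207). C1ql2, a secreted synapse organizer expressed in hippocampal granule cells, fell by 0.67 (SE 0.14, adjusted p = 0.00615). It was at 7.35 ± 1.99 CPM in Ch25h+/+ Tau- and 3.96 ± 0.502 CPM in Ch25h-/- Tau- (SD, n = 4), and passed there too (adjusted p = 0.0497), a call lost on leaving out any of 14 of the 16 libraries. In Tau+, Gria2 and Gria3 passed at 0.40 (adjusted p = 0.0305) and 0.30 (adjusted p = 0.0348). Both calls were lost without Ch25h+/+ Tau+ replicate 4 or Ch25h-/- Tau+ replicate 2, 3 or 4, and that of Gria3 also without Ch25h+/+ Tau+ replicate 1, with an adjusted p of up to 0.103 for Gria2 and 0.127 for Gria3. With only the libraries compared it was 0.121 and 0.131. The average calls were lost for Gria4 on leaving out any of 9 libraries (adjusted p up to 0.0918) and for C1ql3 without Ch25h-/- Tau+ replicate 2 (0.0516).

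In the neurotrophin list, 22 of 24 genes passed the count filter, and 6 were higher and 2 lower on average with Ch25h loss. The higher ones included Ntrk3, the TrkC receptor gene, at 0.30 (adjusted p = 0.0374), the adaptor gene Frs2 at 0.27 (adjusted p = 0.0182), Sos1 at 0.25 (adjusted p = 0.0314) and Creb1, the gene of the factor that binds the cAMP response element, at 0.22 (adjusted p = 0.0238). Furin, a protease that cuts proBDNF, was lower at -0.18 (adjusted p = 0.0400), as was the adaptor gene Shc1 at -0.17 (adjusted p = 0.0499). Ntrk3, Furin and Shc1 were named after their values were seen. The call for Sos1 was lost on leaving out any of 9 libraries (adjusted p up to 0.0739) and that for Creb1 without Ch25h-/- Tau+ replicate 2 or 4 (up to 0.0543). Sorcs3, a sorting receptor gene, was the single gene of this list to pass in Tau+, at 0.43 (adjusted p = 0.0462), a call lost on leaving out any of 14 libraries.

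Of 13 activin genes, the receptor gene Acvr2a was higher at 0.40 (adjusted p = 0.0152) and Bambi, which encodes a decoy receptor, lower at -0.51 (adjusted p = 0.0152). Of 12 neuropeptide genes, Npy was lower at -0.41 (adjusted p = 0.00731) and Crh at -0.33 (adjusted p = 0.0282), the latter call lost on leaving out any of 5 libraries (up to 0.0623). Npy also passed in Tau+ at -0.48 (adjusted p = 0.0494), a call lost on leaving out any of 13 libraries. None of the 16 immediate early genes passed for Ch25h loss. Their median log2 difference was -0.27 in Tau-, where 1 of 16 was above 0, and -0.12 in Tau+, where 6 were. In all 6 lists, 0 genes passed for the interaction and 0 for the mean tau effect.

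The genes most alike in pattern, out of 13875 others, are given for 6 of the 8 genes, by the Pearson correlation of log2(CPM + 0.5) over the 16 libraries, as a description with no test; the points share library depth and class. Vgf was most like Lrfn4 (r = 0.96), Cactin (0.96) and Sema6b (0.95). Nptxr was most like Ddn, the dendrin gene of dendrites (0.94), Prag1 (0.88) and Reep6 (0.85), and these 3 were also its nearest genes after the group means were removed. Inhba was most like Pfkfb3 (0.90), Serpinb8 (0.83) and Gsg1l (0.81), and Bdnf like Trib2 (0.86), Mllt1 (0.82) and Hnrnpa2b1 (0.80). Nptx2 was nearest to Pip4k2c (0.88), Cdr2l (0.85) and Opa3 (0.85), and Scg2 to Triap1 (0.86), Cdca4 (0.85) and Smarcd1 (0.84). None of the 3 genes was kept for Vgf, Nptx2 or Scg2 either with Spearman's correlation or after the group means were removed.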

How the data were processed

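Counts per gene for 16 libraries, as the authors deposited them without normalization, were the only values used. Per the submitters' processing notes, reads were processed with STAR 2.7 on GRCm38 (mm10); the counting program and its use of strand are not given in the sources used here, so reads of antisense or overlapping genes cannot be told apart. Per the labels' protocols, total RNA from a column kit went into SMARTer mRNA libraries. The 8 genes, the pathway lists and the markers were chosen with earlier results of these data known. Genes were filtered with filterByExpr, which kept at least 99.9% of the counts of each library. All 16 libraries entered a single edgeR 4.0.16 model (R 4.3.3, TMM scaling) with 4 group means, and contrasts were tested two-sided with the quasi-likelihood F test. P-values were adjusted over all 17736 genes by Benjamini-Hochberg, with a threshold of 0.05. SE is the log2 fold change divided by the square root of F. CPM used TMM-scaled library sizes, and RPKM the exon length in GENCODE M21. The scripts were tested on simulated data. Named were the 8 genes and, per list and comparison, up to 5 genes past the threshold (else up to 2 with the smallest p), and the 3 genes most alike (those of Ntrk2 and Nptx1 are not reported here). Alternatives were DESeq2 1.42.0, limma-voom (limma 3.58.1) with quality weights, size factors by relative log expression, filters of 1 count in all or of 50 counts on average, a surrogate variable (sva 3.50.0), only the libraries compared, the library class (rRNA-rich above 1000 CPM of CT010467.1) as a covariate, and leaving out each library. Chosen after seeing the data were GC-corrected offsets (loess, span 0.5) and leaving out the 7 rRNA-rich libraries. Counting error alone underlies statements on depth. The replicate numbers follow record order and pair nothing. The table held 105 repeated symbols; none was one of the 8 genes.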

Additional observations from a re-analysis of the deposited data

Results flagged for a closer look

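In 3 of 32 groups (8 genes in 4 groups of 4 libraries), 1 library lay so far from the other 3 that its gap, divided by the range of the group, was above Dixon's 95% critical value. Chance gives such a gap in about 1 in 20 groups. Ntrk2 was at 484 CPM in Ch25h+/+ Tau+ replicate 1 and at 763 to 777 CPM in the others of its group. Nptx1 in the same library was at 370 CPM, against 443 to 450 CPM in the others. Nptx2 in Ch25h-/- Tau+ replicate 4 was at 64.8 CPM, above the 61.1 to 61.5 CPM of the other 3 libraries, whose values lay unusually close together.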

How the results depend on the processing

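No paired analysis was possible because the replicate numbers follow record order and the labels pair no libraries across groups. The count of the 8 genes past the threshold for Ch25h loss in Tau- was 1. It was 2 with no filter, DESeq2, limma-voom and only the libraries compared, 0 with the library class as a covariate and with GC-corrected offsets, and 0 to 2 on leaving out each library. For Ch25h loss in Tau+ it was 0, and 1 with relative log expression size factors, no filter, a mean of at least 50 counts, DESeq2 and limma-voom, and 0 to 1 on leaving out each library. For the average loss it was 2, 0 with the class covariate and 1 with GC-corrected offsets, and 2 on leaving out any library. It stayed at 0 for both tau effects, their mean and the interaction under every alternative run. Nptx2 gained a call in Tau- without Ch25h+/+ Tau+ replicate 1 (adjusted p = 0.0319), and Vgf in Tau+ without Ch25h+/+ Tau+ replicate 3 (adjusted p = 0.0317) or Ch25h-/- Tau+ replicate 1. Of 1384 alternative fold changes, 1361 kept their side of the threshold, 11 lost a call, 12 gained one, 0 reversed a called direction, and 64 that passed in neither fit changed sign. Counts over all genes moved more: 182 for Ch25h loss in Tau- ranged over 0 to 1388 under other settings and 3 to 1306 on leaving out a library, 629 in Tau+ over 3 to 1883 and 108 to 1691, and 3603 on average over 0 to 4557 and 2436 to 4226. The tau counts of 277 in Ch25h+/+, 7 in Ch25h-/- and 152 on average ranged over 203 to 498, 2 to 28 and 117 to 319 under other settings, and over 160 to 299, 6 to 13 and 107 to 233 on leaving out a library. The interaction count of 6 ranged over 3 to 57 and 0 to 22. The cause was not tested. The 32 group means moved by less than 1 SD on total counts. At 87 to 372 counts per library, Inhba is the gene that depth limits most.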
